A study of Mus musculus with 2 samples.

Results

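The killer lectin-like receptors of the natural killer gene complex were taken as every gene in the deposited tables whose symbol begins with Klr followed by a, b, c, d, e, g, h, i or k. The rule found 26 of 32285 genes: 11 Klra, 5 Klrb, 3 Klrc, 1 Klrd, 1 Klre, 2 Klrg, 2 Klri and 1 Klrk gene, and 0 whose symbol begins with Klrh. All 26 lie on mouse chromosome 6 of GRCm38, 25 of them between Klrg1, which starts at position 122270596, and Klra2, which ends at 131247362. Klrg2 lies apart from them, at 38625693 to 38637242. Of the 26, 23 had at least 20 UMIs (unique molecular identifiers, 1 for each captured transcript) over the T, NK and innate lymphoid cells and are described with values. The other 3 had too few there: Klrb1 9 UMIs, Klra17 3 and Klrg2 2.

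The study profiled aortic leukocytes sorted on CD45, the surface protein of white blood cells, by droplet single-cell RNA sequencing of transcript 3′ ends. Of its 2 libraries, 1 carries the label control and the other names the treatment ZnDPA@siIRF5. The agent's name holds siIRF5, short for an interfering RNA that targets the transcription factor IRF5, and the study asked what the treatment does to macrophages of the lesion. The labels give no genotype, diet, age, sex or number of animals, nor what the control group received. A single library stands for each group, so no difference was tested: each interval below is a 95% interval of counting error, and mouse, dissection, library and treatment cannot be told apart.

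Filtering kept 12466 cells of the library labelled treated (median 4712 UMIs) and 12038 of the one labelled control (median 4766), and 38 kept barcode sequences occurred in both. Irf5 itself was nearly level between the libraries. Macrophage-like cells held 118 CPM (UMIs of the gene per 1000000 UMIs of those cells) in the library labelled treated, against 109 CPM in that labelled control. The log2 ratio was 0.12 (0.01 to 0.24). Of all genes with at least 20 UMIs in these cells, the central 95% lay between -0.91 and 0.82. Cells were clustered without the Klr genes, so that no cluster was defined by them. The T, NK and innate lymphoid cells numbered 6923, 2766 in the library labelled treated, against 4157 in that labelled control. Fibroblast-like cells, which a CD45 gate should leave out, numbered 99 and 117.

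Natural killer (NK) cells kill infected or transformed cells and read the balance of inhibitory and activating receptors on their surface. In the mouse, much of that balance is set by C-type lectin-like proteins encoded together in the NK gene complex. Ly49 receptors (Klra genes) bind classical class I histocompatibility molecules, CD94 (Klrd1) pairs with NKG2 proteins (Klrc genes) to bind the nonclassical molecule Qa-1, and NKG2D (Klrk1) binds stress-induced ligands. NKR-P1 receptors (Klrb1 genes) bind Clec2 proteins, and KLRG1 binds cadherins. Each NK cell is known to switch on only some Ly49 genes, so a population carries many combinations.

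Upstream sequences are shown for the 2 pairs of genes with the most alike promoters, since their members had unlike and like levels. RefSeq, on GRCm38.p6, listed a promoter for 23 of the 26 genes. Over the 250 bases before the start site (the most alike windows, where a gene has 2 listed start sites), Klrc3 and Klrc2 were the most alike of 253 pairs, with 98.0% identity, followed by Klra4 and Klra8 with 84.5% and Klra9 and Klra3 with 83.3%. The windows are chr6:129643289-129643538 and chr6:129660557-129660806 for the first pair and chr6:130067272-130067521 and chr6:130129899-130130148 for the second, all read 5′ to 3′ on the minus strand. GENCODE starts longer transcripts of Klrc3 and Klrc2 within these windows. Capitals mark the bases of each pair that differ or have no partner in the alignment.
Klrc3: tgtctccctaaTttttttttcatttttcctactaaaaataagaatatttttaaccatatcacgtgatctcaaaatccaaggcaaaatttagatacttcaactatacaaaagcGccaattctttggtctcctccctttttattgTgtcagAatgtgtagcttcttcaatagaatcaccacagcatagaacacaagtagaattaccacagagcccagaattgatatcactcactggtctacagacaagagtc
Klrc2: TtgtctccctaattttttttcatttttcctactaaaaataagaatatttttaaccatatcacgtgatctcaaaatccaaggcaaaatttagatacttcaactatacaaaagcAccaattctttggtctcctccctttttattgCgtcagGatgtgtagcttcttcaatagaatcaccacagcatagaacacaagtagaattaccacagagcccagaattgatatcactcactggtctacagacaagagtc
Klra4: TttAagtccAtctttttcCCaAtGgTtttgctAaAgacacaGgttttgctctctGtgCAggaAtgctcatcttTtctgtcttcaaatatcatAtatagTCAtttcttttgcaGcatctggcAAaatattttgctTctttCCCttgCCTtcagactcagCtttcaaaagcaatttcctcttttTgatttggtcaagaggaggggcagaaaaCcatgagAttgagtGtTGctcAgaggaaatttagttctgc
Klra8: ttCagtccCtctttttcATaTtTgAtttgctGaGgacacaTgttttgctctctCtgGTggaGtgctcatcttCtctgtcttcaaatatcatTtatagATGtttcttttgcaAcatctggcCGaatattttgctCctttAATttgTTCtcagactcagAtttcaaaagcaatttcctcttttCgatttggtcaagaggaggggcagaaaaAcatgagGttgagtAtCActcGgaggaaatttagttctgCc

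The first pair differed widely in level. Klrc2, which encodes the activating receptor subunit NKG2C, had 1753 UMIs in the T, NK and innate lymphoid cells, and Klrc3, which encodes NKG2E, had 70, a ratio of 25.0 (19.7 to 32.3). The ratio was 24.4 in the library labelled treated, against 25.6 in that labelled control. The second pair had nearly equal counts: Klra4 had 794 UMIs and Klra8 771, a ratio of 1.03 (0.93 to 1.14).

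Short motifs were looked for on both strands of the 250 bases before every start site that RefSeq lists, 28 windows for the 23 members, since 5 of them (Klrb1b, Klre1, Klrc2, Klra8 and Klra7) have 2. TGTGGT, the core bound by RUNX factors, was in 9 of the 28 windows (32.1%) and in 14.045% of 32851 windows of all genes. TATAAA, the core of a TATA box, was in 10 of 28 (35.7%) and in 12.4% of all windows. For Klrc2 the TATAAA lies in its other window, not in the one printed. AGGTGTGA, a T-box core, and CCGGAAG, an ETS core, were in 0 of 28, against 1.12% and 6.91% of all windows. None of the 4 motifs contains another, and a match describes letters only.

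NK cell-like cells held the highest summed level of the 26 genes in the library labelled treated and shared it with cluster 14, described next, in that labelled control. This cluster had 14 of 14 NK cell markers and little of the T cell receptor component Cd3e (34.2 CPM over both libraries), with 210 cells in the library labelled treated, against 207 in that labelled control. The members summed to 4501 CPM in the library labelled treated, against 4519 CPM in that labelled control, a log2 ratio of -0.01 (-0.07 to 0.06). These cells held 30.2% (29.5 to 31.0) of the members' lymphoid UMIs in the library labelled treated, against 22.7% (22.1 to 23.3) in that labelled control, while making up 7.59% and 4.98% of the lymphoid cells. The shares move with how many other lymphoid cells each library held.

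Next came a pair of clusters that stayed unnamed. Cluster 14 had 10 of 14 NK cell markers, with Itga1 and Xcl1, but also Cd3e at 735 CPM. Of its 123 cells in the library labelled treated 84.6% had a Cd3e UMI, and of its 127 cells in that labelled control 89.8%. Its makeup was not the same in both libraries: Trdc, the delta T cell receptor gene, was in 42.3% of its cells in the library labelled treated, against 26.8% in that labelled control, and Trac, the alpha chain gene, in 45.5% and 58.3%. The part of this shift in the differences given for cluster 14 below was not tested. Its summed Klr level was 3890 CPM and 4507 CPM, a log2 ratio of -0.21 (-0.31 to -0.12).

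Cluster 17 (124 and 222 cells) held Cd3e at 503 CPM with Ly6c2 and Pde2a, and a Cd8a UMI in 23.4% and 14.9% of its cells. Its summed level was 2071 CPM in the library labelled treated, against 2421 CPM in that labelled control. Effector CD8 T-like cells followed at 1417 and 1299 CPM, cycling-like cells at 858 and 775 and naive-like T cells at 814 and 751. ILC2-like cells (group 2 innate lymphoid, by their markers) held 236 and 168 CPM, IL-17 type gamma delta T-like cells 200 and 225, and regulatory T-like cells 135 and 117. B cell-like cells, which gave the background, held 21.4 and 26.3 CPM at median depths of 4966 and 4562 UMIs.

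**Figure D1:**
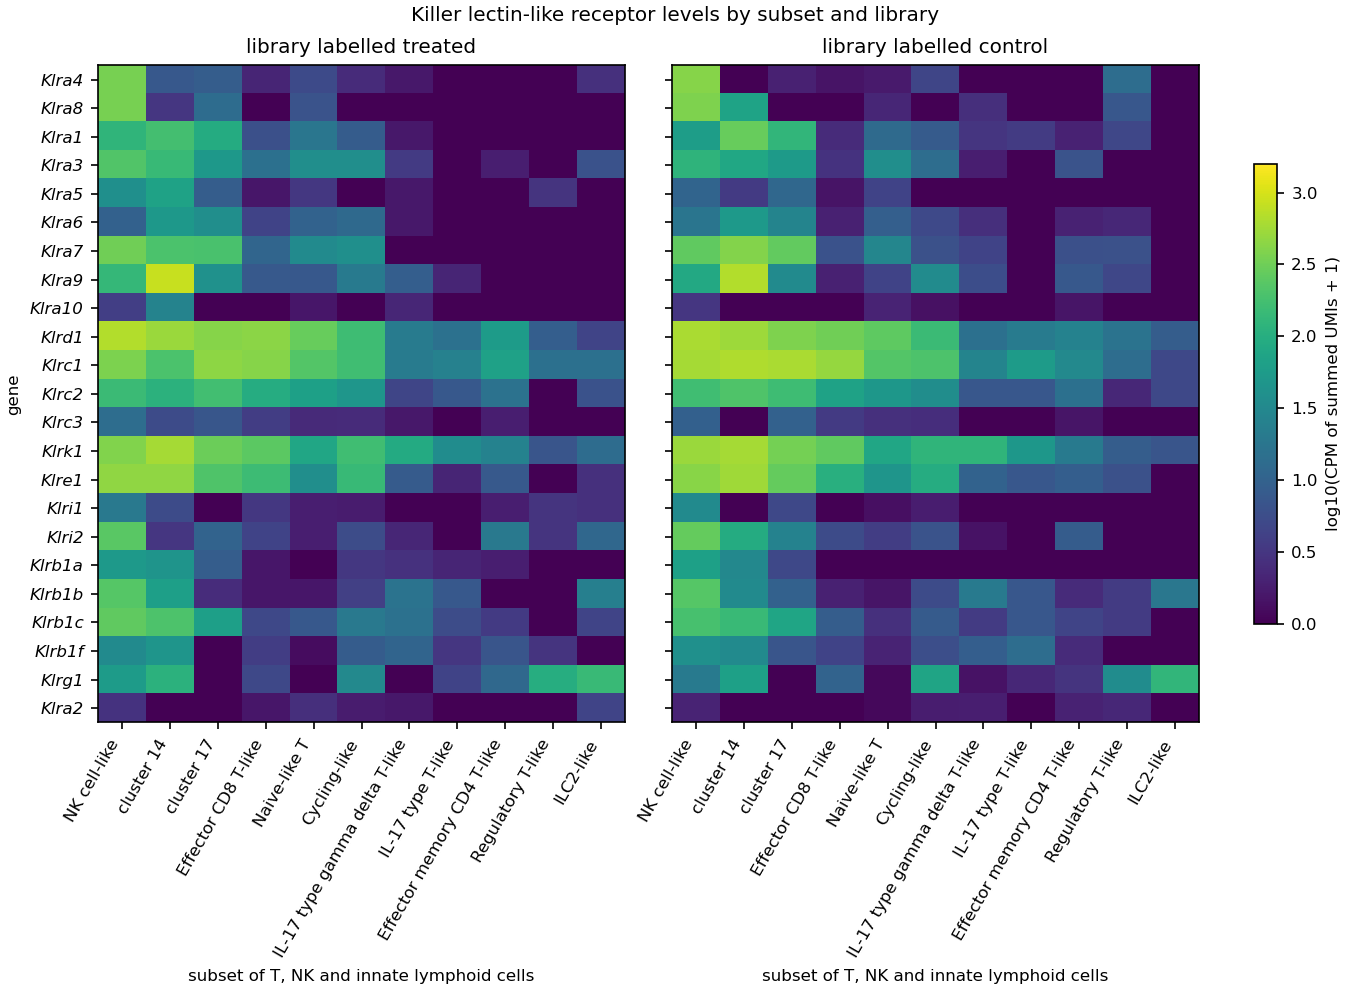
Heat map of log10(CPM of summed UMIs + 1) for the 23 members with at least 20 lymphoid UMIs (rows) in 11 subsets of T, NK and innate lymphoid cells (columns), 1 panel per library. Klra4 and Klra8 are brightest in the NK cell-like column and Klra9 in cluster 14, and Klrd1, Klrc1 and Klrk1 extend over the effector CD8 and naive-like T columns.

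The activating Ly49 genes had most of their UMIs in NK cell-like cells. Klra4 (Ly49D) and Klra8 (Ly49H) encode receptors that signal through the adaptor DAP12. Klra4 measured 352 CPM in NK cell-like cells of the library labelled treated, against 418 CPM in that labelled control, and Klra8 measured 344 and 381 CPM. In cluster 14, Klra4 had 3 UMIs in the library labelled treated, against 0 of 127 cells in that labelled control, which allows a share of up to 2.36%. Such limits here are on cells with a captured UMI, not on cells that express the gene. Klra8 had 1 UMI in cluster 14 of the library labelled treated, against 28 UMIs, in 7 cells, in that labelled control. In cluster 17, Klra8 had 8 UMIs, in 3 cells, against 0 of 222 cells, which allows a share of up to 1.35%. Effector CD8 T-like cells held a Klra8 UMI in 0 of 987 cells, which allows a share of up to 0.304%.

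The inhibitory Ly49 genes had other rankings. Klra9 (Ly49I) was highest in cluster 14, at 858 CPM and 677 CPM, against 133 and 84.95 CPM in NK cell-like cells and 40.3 and 33.4 in cluster 17. Klra7 (Ly49G) measured 320 and 265 CPM in NK cell-like cells, 195 and 405 in cluster 14, and 189 and 265 in cluster 17, so that it stood at 189 CPM or more in all 3. Klra1 (Ly49A) was higher in cluster 14 (173 and 287 CPM) than in NK cell-like cells (123 and 59.9), with cluster 17 at 93.1 and 127. Klra3 (Ly49C) measured 214 and 120 CPM in NK cell-like cells and was the Ly49 gene with most UMIs in naive-like T cells (37.4 and 37.6 CPM).

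The rarer Ly49 genes were read in few cells. Klra6 (Ly49F) reached 50.5 and 52.9 CPM in cluster 14 and 37.2 and 26.5 in cluster 17, above its 8.90 and 16.3 in NK cell-like cells. Klra5 (Ly49E) measured 38.6 and 9.80 CPM in NK cell-like cells, from 10 and 5 cells. Klra10 (Ly49J) had 12 UMIs in 10 cells of cluster 14 in the library labelled treated, against 0 of 127 cells in that labelled control. In the last 400 bases of their transcripts, Klra10, Klra9 and Klra3 share 90-base stretches (20.6%, 10.5% and 6.03% of those tried), so reads of these 3 may have been moved between them or dropped.

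The Ly49 makeup thus differed between subsets in both libraries. Over the 9 lymphoid Ly49 genes (Klra1, 3, 4, 5, 6, 7, 8, 9 and 10), Klra4 and Klra8 made up 22.9% and 22.4% of the Ly49 UMIs of NK cell-like cells in the library labelled treated, against 30.8% and 28.1% in that labelled control. Klra7 followed in NK cell-like cells, with 20.85% and 19.5%. In cluster 14 the leading gene was Klra9, with 56.3% (52.6 to 60.1) and 43.0% (39.1 to 47.0). In cluster 17 it was Klra7, with 43.3% (37.4 to 49.3) and 51.1% (46.8 to 55.5). In naive-like T cells it was Klra3, with 32.4% (27.8 to 37.1) and 39.3% (35.2 to 43.55). Klra7 came close there in the library labelled treated, with 28.2% (23.9 to 32.8), against 29.5% (25.7 to 33.6) in that labelled control. UMIs of 1 cell share that cell, so these intervals are narrower than the spread between cells.

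**Figure D2:**
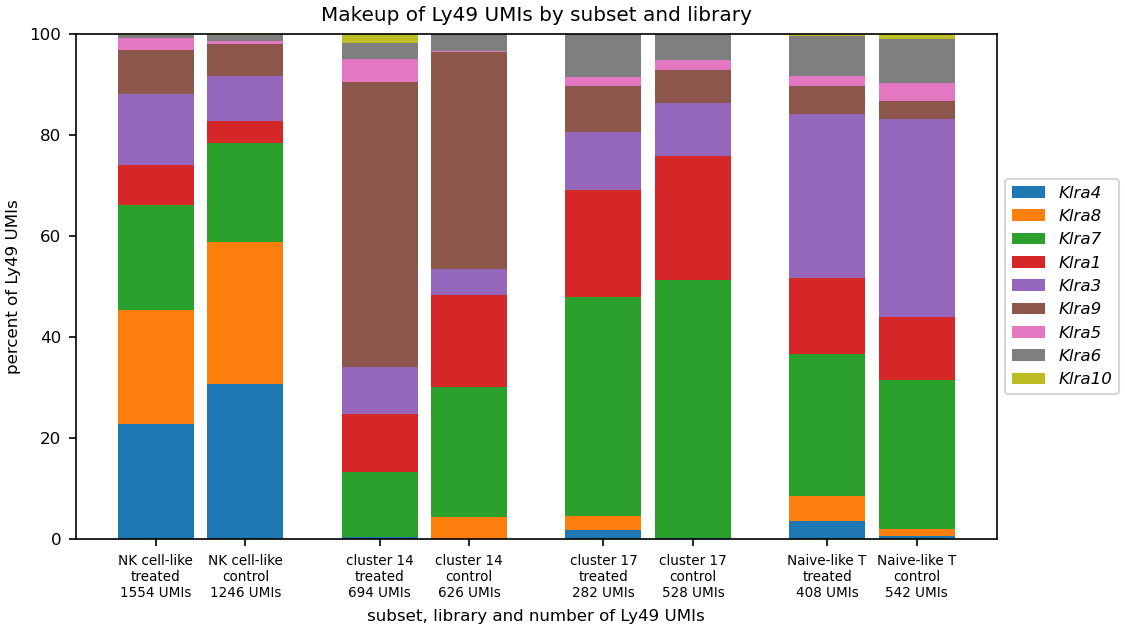
Stacked bars of the percent of Ly49 UMIs that each of 9 Klra genes took in 4 subsets, 1 bar per library, with the number of UMIs under each bar. Klra4 and Klra8 take 22.4% to 30.8% each of the NK cell-like bars and at most 4.90% each of the others, where Klra9 (cluster 14), Klra7 (cluster 17) and Klra3 (naive-like T) lead.

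Within NK cell-like cells Klra4 and Klra8 were patchy, with many UMIs in few cells. Klra4 had 5.65 UMIs per cell with any in the library labelled treated (63 of 210 cells) and 6.40 in that labelled control (60 of 207 cells), and Klra8 had 4.58 and 4.61 (76 cells in each). Klrk1, at a like total count, was spread more widely, with 2.5 and 2.81 UMIs in each of 160 and 169 cells. The Fano factor, the variance of counts over their mean, was 7.64 and 8.91 for Klra4, 5.15 and 5.62 for Klra8, 1.67 and 1.74 for Klrk1, and 1.52 and 1.48 for Klrb1c. In the library labelled treated, Klra1 (5.31), Klra9 (5.30) and Klra5 (5.04) had Fano factors near that of Klra8. In that labelled control, Klra1 (3.66) and Klra9 (2.84) lay below it. Not all Ly49 genes stood apart in this way: Klra3 had 3.04 and 2.24 UMIs per positive cell with Fano factors of 3.30 and 2.77, and Klrc1 2.79 and 4.16 with 2.29 and 3.08.

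A cell of the NK cell-like cluster held UMIs of a mean of 1.93 of the 9 Ly49 genes in the library labelled treated (at most 6) and 1.59 in that labelled control (at most 5). At least 1 was found in 73.8% (67.3 to 79.6) and 60.9% (53.9 to 67.6) of cells, at median depths of 4400 and 3908 UMIs. With each cell thinned to 2000 UMIs, which left out 6 and 4 shallower cells, the shares were 70.1% and 53.7%. In cluster 14 the shares were 91.1% and 74.0%, in cluster 17 67.7% and 59.9%, and in B cell-like cells 0.933% and 0.790%. All 3 subsets were far above the B cell-like background. Thinned in the same way, the shares were 84.8% and 71.2% in cluster 14 and 50.4% and 49.8% in cluster 17, so that the cluster 17 shares, from median depths of 4983 and 4165 UMIs, were level at equal depth.

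**Figure D3:**
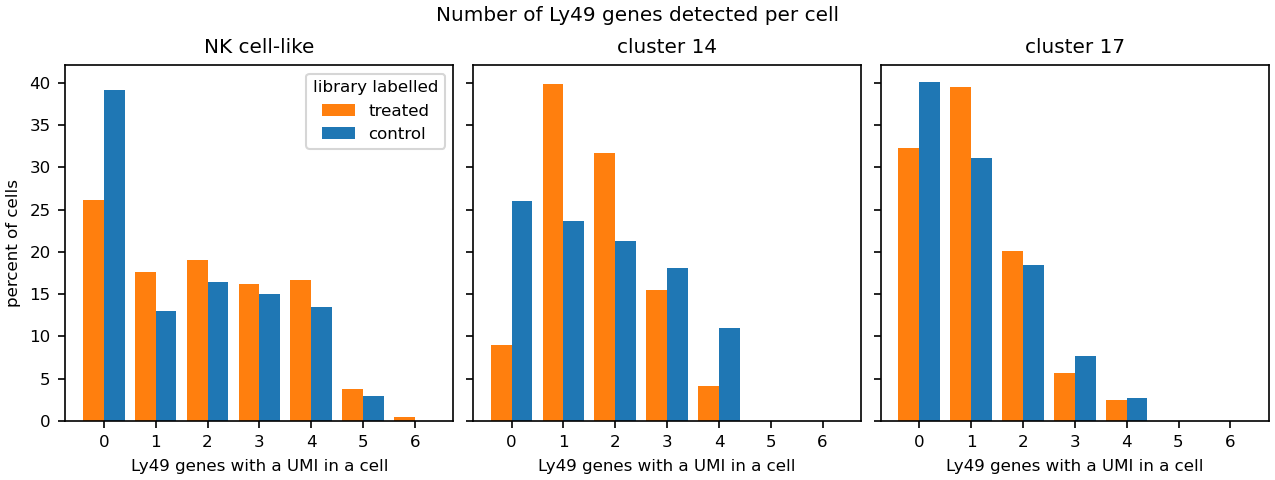
Percent of cells (y axis) by the number of 9 Ly49 genes with at least 1 UMI in the cell (x axis) in NK cell-like cells, cluster 14 and cluster 17, by library. In the library labelled treated, 26.2% of NK cell-like cells and 8.94% of cluster 14 cells lie at 0, against 39.1% and 26.0% in the library labelled control.

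Klra4 and Klra8 were often found in the same cells. In the library labelled treated, 43 NK cell-like cells had both, 20 had only Klra4, 33 only Klra8 and 114 neither. In that labelled control, 44 had both, 16 only Klra4, 32 only Klra8 and 115 neither. Klra8 was thus in 68.3% of cells with Klra4 and 22.4% of cells without it in the first, and in 73.3% and 21.8% in the second. Median depths were close: 4531 UMIs in cells with Klra4 and 4366 in cells without it, and 3910 and 3908.

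Other pairs were linked to differing degrees, and Klra7 was often found with Klra4 and Klra8. Klra8 was in 56.7% of cells with Klra7 and 20.8% of cells without it in the library labelled treated. In that labelled control the shares were 62.2% and 22.6%. Klra7 was in 63.5% of cells with Klra4 and 34.0% of cells without it in the library labelled treated, and in 61.7% and 25.2% in that labelled control. Klra7 was in 47.9% of cells with Klra9 and 41.4% of cells without it in the library labelled treated, and in 50% and 32.8% in that labelled control. Klrc1, which encodes the inhibitory subunit NKG2A, went the other way with Klra8: a Klra8 UMI was in 29.6% of cells with Klrc1 and 48.0% of cells without it in the library labelled treated, and in 23.4% and 58.2% in that labelled control. Cells with Klrc1 were the deeper ones in both libraries (4544 against 4073 UMIs, and 3955 against 3792).

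Klrd1, the CD94 partner chain, had the most UMIs of any member, 12262 over all kept cells. In NK cell-like cells it measured 670 CPM (621 to 723) and 620 CPM (570 to 673), with a UMI in 86.2% and 84.5% of cells. Klrc1 measured 373 and 579 CPM there, 193 and 650 in cluster 14, 450 and 613 in cluster 17, 420 and 500 in effector CD8 T-like cells, and 218 and 220 in naive-like T cells. Klrc2 measured 151 and 163 CPM in NK cell-like cells and 169 and 159 in cluster 17. The subunits were thus not limited to NK cells. Of the 90-base stretches in the last 400 bases of its transcripts, Klrc1 shares 30.6% with Klrc2, so its counts are less certain than those of Klrd1, which shares none.

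The balance of Klrd1 to Klrc1 varied between subsets and between the libraries. It was 1.80 (1.58 to 2.05) in NK cell-like cells of the library labelled treated, against 1.07 (0.95 to 1.21) in that labelled control, and 0.93 and 0.62 in cluster 17. In cluster 14 it was 2.74 (2.14 to 3.54) and 0.83 (0.69 to 0.99), above NK cell-like cells in one library and below them in the other. In the naive-like cluster led by Rgs6, Igfbp4 and Dapl1, Klrd1 measured 205 and 197 CPM while Klrc1 measured 40.0 and 38.8, a ratio of 5.13 and 5.08. The same cluster had Klra7 at 0 and 0.81 CPM and Klre1 at 0 and 3.23, while the largest naive-like cluster had Klra7 at 40.2 and 37.6 and Klre1 at 45.4 and 55.2.

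NKG2D (Klrk1), the activating receptor of stress ligands, measured 395 and 516 CPM in NK cell-like cells, 586 and 579 in cluster 14, 303 and 342 in cluster 17 and 245 and 263 in effector CD8 T-like cells. It was also the leading member in IL-17 type gamma delta T-like cells, at 89.5 and 122 CPM, with a UMI in 23.3% and 26.8% of cells. Klre1, which forms receptors with a KLRI chain, measured 470 and 426 CPM in NK cell-like cells and 461 and 556 in cluster 14. Its activating partner Klri2 was at 237 and 275 CPM in NK cell-like cells but at 2.20 and 93.2 in cluster 14 and 9.31 and 25.5 in cluster 17. Its inhibitory partner Klri1 had 19 and 30 UMIs in NK cell-like cells.

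The NKR-P1 genes were found in NK cell-like cells above most other subsets. Klrb1c, which encodes NK1.1, measured 264 and 187 CPM there, 202 and 146 in cluster 14 and 63.6 and 74.6 in cluster 17. Klrb1b, an inhibitory receptor for Clec2d, measured 225 and 229 CPM in NK cell-like cells, 63.7 and 32.7 in cluster 14 and 1.55 and 8.84 in cluster 17. ILC3-like cells (11 and 7 cells) had 14 and 3 Klrb1b UMIs, most of the 23 and 3 UMIs of all members there. Klrb1a, an activating receptor, measured 53.4 and 64.3 CPM and Klrb1f, a receptor for Clec2i, 32.6 and 39.2 in NK cell-like cells, and 43.9 and 30.2, and 46.1 and 32.7, in cluster 14. Klrb1c and Klrb1b overlap the gene model Gm44511 on the same strand, which is not among the genes of the deposited tables. Klrb1f overlaps Gm44000, which is among them, on the other strand, so its count depends on how such reads were assigned.

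KLRG1, an inhibitory receptor for cadherins, had another distribution. Among the subsets described so far, ILC2-like cells had the highest Klrg1 level, 149 CPM in the library labelled treated, against 129 CPM in that labelled control. A Klrg1 UMI was in 38.3% and 35.6% of ILC2-like cells. At the finer clustering given below, the smaller NK cell-like cluster had 172.5 and 224 CPM, from 44 and 12 UMIs. Cluster 14 held 114 and 65.5 CPM, regulatory T-like cells 98.8 and 34.7, cycling-like cells 30.9 and 73.3, and NK cell-like cells 55.4 and 19.6. Cluster 17 had no Klrg1 UMI in 346 cells, which allows a share of cells with a captured UMI of up to 0.867%. Cycling-like cells were the deepest subset (medians 9816 and 12052 UMIs), and thinned to 2000 UMIs their shares with Klrg1 were 8.62% and 10.4%, down from 16.4% and 36.3%.

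Between the libraries, some single members differed in NK cell-like cells while the sum of all members was level. Of the 21 members with at least 20 UMIs there, 8 differed at least 1.5-fold, 5 higher and 3 lower in the library labelled treated, and 13 lay within it. The median log2 ratio was -0.02. Of all 7723 genes with that many UMIs in these cells, 17.2% differed as much, with a median of -0.04. Klra1, Klra9 and Klra5, among the 8, had Fano factors of 5.31, 5.30 and 5.04 in the library labelled treated. The part of such bunching of UMIs in the count was not tested. A level here is a share of a class's own UMIs, so the number of cells does not enter it.

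The 5 higher members were Klrg1, Klra5, Klra1, Klra3 and Klra9. Klrg1 had 56 UMIs (55.4 CPM) in the library labelled treated, against 18 (19.6 CPM) in that labelled control, a log2 ratio of 1.498 (0.71 to 2.35). Klra1 had 124 UMIs against 55, 1.03 (0.56 to 1.52), and Klra3 216 against 110, 0.83 (0.50 to 1.18). Klra9 had 135 against 78, 0.65 (0.24 to 1.07). Klra5 had 39 UMIs in 10 cells against 9 in 5 cells, 1.98 (0.91 to 3.21), and 5 cells gave 71.8% of the first count.

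The 3 lower members were Klrc1, Klri1 and Klra6. Klrc1 had 377 UMIs (373 CPM) against 532 (579 CPM), a log2 ratio of -0.64 (-0.83 to -0.44). The share of cells with a Klrc1 UMI differed less, 64.3% against 61.8%, and the count per such cell was 2.79 against 4.16. For Klri1 (-0.80) and Klra6 (-0.88) the intervals held 0, with 19 against 30 and 9 against 15 UMIs. Among the members within 1.5-fold, Klrk1 measured -0.38 (-0.58 to -0.19), Klrb1c 0.49 (0.21 to 0.78), Klrd1 0.11 (-0.05 to 0.28), Klra4 -0.25 (-0.46 to -0.04) and Klra8 -0.15 (-0.37 to 0.07). Klrc3 had 13 UMIs against 8, and Klra10 (3 and 2) and Klra2 (2 and 1) fell short of 20.

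The makeup of the NK cell-like cells differed between the libraries. At a finer clustering they fell into a cluster led by Gzma, Serpinb9b, Cma1 and Prf1, genes of cytotoxic granules among them, and a larger one led by Car2 and Ncr1. The first held 29.5% of NK cell-like cells in the library labelled treated (61 cells) and 7.80% in that labelled control (16 cells). Over both libraries, Klrg1 measured 181 CPM in the first cluster and 11.2 in the larger one, and Klra3 389 and 126, while Klra4 measured 343 and 396 and Klrc1 470 and 469. Within the larger cluster alone, all 8 members had log2 ratios past 1.5-fold: Klra1 measured 1.27 (0.75 to 1.80), Klra3 0.63 (0.21 to 1.05), Klra9 0.63 (0.16 to 1.10) and Klrc1 -0.67 (-0.89 to -0.45). Klrg1 had 12 against 6 UMIs there, 1.19 (-0.33 to 2.89), an interval that held 0. In the smaller cluster Klrg1 (-0.37, -1.32 to 0.68), Klra3 (-0.09, -0.77 to 0.64) and Klra9 (-0.15, -1.16 to 1.01) were not higher, and it held 44 of the 56 Klrg1 UMIs of NK cell-like cells in the library labelled treated. Klra1 (23 against 1 UMIs, 2.27, -0.35 to 7.64) and Klra5 (20 against 1, 2.07, -0.57 to 7.45) were higher there, with intervals that held 0. Klrc1 was lower there too (-0.81, -1.35 to -0.24).

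Markers of other cells were also counted in NK cell-like cells. The 7 macrophage markers summed to 61.3 CPM in the library labelled treated, against 49.0 in that labelled control, with 0 and 1 of them at 0. The 7 B cell markers summed to 29.7 and 91.5, with 2 and 1 at 0. The 10 T cell markers summed to 794 and 1077 CPM, and Cd3e had 16 and 50 UMIs. The 14 NK cell markers summed to 28955 and 18222 CPM. With only the 285 cells that had at most 1 UMI over B cell, macrophage and neutrophil markers, 6 of 19 members lay past 1.5-fold. The part of the T cell markers in the ratios was not tested.

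**Figure D4:**
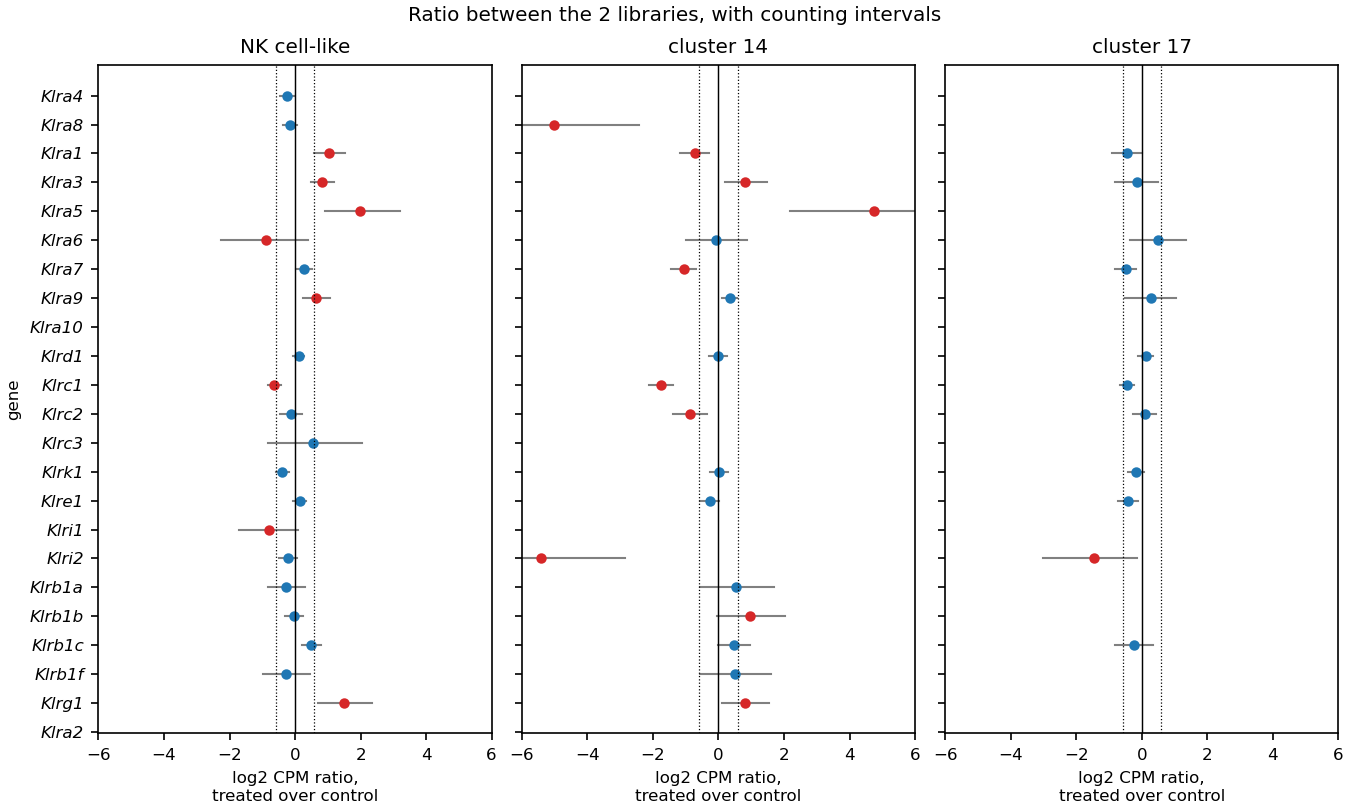
Log2 ratio of CPM, library labelled treated over library labelled control (x axis), for members with at least 20 UMIs in NK cell-like cells, cluster 14 and cluster 17, with 95% counting intervals as grey lines, drawn no further than the axis limits. Dotted lines mark 1.5-fold and red points lie past it, 8 in NK cell-like cells, 10 in cluster 14 and 1 in cluster 17.

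In cluster 14, 10 of 18 members differed at least 1.5-fold, against 21% of all genes. Klrc1 had 88 UMIs in the library labelled treated, against 258 in that labelled control, a log2 ratio of -1.75 (-2.12 to -1.40), with a UMI in 26.8% against 55.9% of cells. Klrc2, Klra7 and Klra1 were lower too, at -0.86 (-1.38 to -0.34), -1.05 (-1.44 to -0.67) and -0.73 (-1.16 to -0.30). Klri2 had 1 UMI against 37 in 18 cells, and Klra8 1 against 28 in 7 cells. Higher were Klra5, with 31 UMIs in 10 cells against 1, Klra3 at 0.82 (0.19 to 1.48), Klrg1 at 0.80 (0.10 to 1.54), and Klrb1b at 0.96, whose interval held 0. Klrd1 (-0.02) and Klrk1 (0.02) were level.

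In cluster 17, 1 of 12 members, Klri2, differed at least 1.5-fold, against 18.6% of all genes, with 6 UMIs against 26. Klrc1 measured -0.45 (-0.65 to -0.24) and Klra7 -0.49 (-0.81 to -0.17) there. The 2 CD8 T cell markers summed to 135 and 69.7 CPM in this cluster and the 6 gamma delta T cell markers to 208 and 343, and their part was not tested. In naive-like T cells the count was 3 of 13 against 10.5%, all higher in the library labelled treated: Klrb1c (23 against 10 UMIs), Klra8 (20 against 7) and Klra9 (23 against 19). The 20 Klra8 UMIs came from 6 of 580 cells. The 23 Klra9 UMIs came from 10 cells, and a single cell gave 39.1% of them. In the naive-like T cells Klrd1 (0.18), Klrc1 (-0.02) and Klrk1 (0.02) lay within 1.5-fold.

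In effector CD8 T-like cells 5 of 9 members differed as much, against 14.2% of all genes. Klre1 was higher, with 276 UMIs against 210 and a log2 ratio of 0.59 (0.33 to 0.86), as were Klra3 (25 against 4 UMIs) and Klra7 (18 against 11, an interval that held 0). The 25 Klra3 UMIs came from 8 of 427 cells, and 5 cells gave 88% of them. Klrg1 (7 against 19) and Klrb1c (7 against 16) were lower, with intervals that held 0. One of the clusters in this subset, led by Coch and Sln, held 73 cells in the library labelled treated, against 6 in that labelled control. Without it, Klre1 measured 134 and 103 CPM, which is within 1.5-fold. Gamma delta T cell markers summed to 236 and 64.1 CPM in the subset, with 1 of 6 at 0 in each library, and their part was not tested.

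In cycling-like cells the count was 7 of 14 against 16.9%, 5 higher and 2 lower. Klrg1 had 41 UMIs against 181, a log2 ratio of -1.25 (-1.77 to -0.75). Klra7 had 51 against 13, of which 5 cells gave 88.2% of the first count, and Klra9 had 26 against 85, where a single cell gave 30.6% of the second. Klra3 (1.51), Klra6 (1.48), Klrb1c (1.37) and Klrb1f (0.63) were higher, the last with an interval that held 0. Markers of several lineages were found in this subset and differed too: the 6 gamma delta T cell markers summed to 716 and 247 CPM, the 8 IL-17 type T cell markers to 496 and 191, and the 7 B cell markers to 16.6 and 190. The part of this makeup in the differences was not tested.

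The adaptors through which these receptors signal lay within 1.5-fold. Of 13 adaptors and signalling partners measured in NK cell-like cells, 0 differed as much, against the 17.2% of all genes given above, and their median log2 ratio was 0.22. Fcer1g measured 2015 CPM in the library labelled treated, against 1610 in that labelled control (0.32, 0.23 to 0.42). Tyrobp, which encodes DAP12, measured 1670 and 1346 (0.31, 0.20 to 0.42), and Hcst, which encodes DAP10, 488 and 478. Fcer1g and Tyrobp are also among the NK cell markers that named the cluster. Inpp5d, which encodes an inhibitory phosphatase, measured 534 and 536, Ptpn11 58.3 and 43.6, and Syk 81.1 and 63.2.

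Of 13 other NK cell receptors in the same cells, against that 17.2%, 3 were at least 1.5-fold higher (Lair1, Fcgr3 and Slamf7) and 3 lower (Slamf6, Tigit and Crtam) in the library labelled treated. Fcgr3, Slamf7 and Crtam are named after their values were seen. The inhibitory collagen receptor Lair1 had 23 UMIs against 7, a log2 ratio of 1.58 (0.31 to 3.04). Cd7 (320 against 379 CPM) and the activating receptor Ncr1 (224 against 218 CPM) lay within it. Slamf6 had 10 UMIs against 16, and Tigit 20 against 30, with intervals that held 0.

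Of the 22 listed ligands, 19 were in the tables. Macrophage-like cells had at least 20 UMIs of 11, of which 1, the KLRG1 ligand Cdh1, differed at least 1.5-fold (20 against 9 UMIs, an interval that held 0), against 11.1% of all genes there. The Ly49 ligands H2-K1 and H2-D1 measured 2265 and 1958 CPM, and 1790 and 1583, in macrophage-like cells, with log2 ratios of 0.21 and 0.18. H2-T23, which encodes Qa-1, the ligand of CD94 with NKG2A, measured 201 and 160 CPM (0.33, 0.23 to 0.42). B2m, the light chain of class I molecules, measured 2026 and 1611 CPM. Raet1e, an NKG2D ligand, measured 15.2 and 22.2 CPM (-0.54, -0.82 to -0.26) in macrophage-like cells. In NK cell-like cells 9 ligands were measured and 0 lay past 1.5-fold, against 17.2% of all genes.

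Of the 55013 UMIs of the 26 genes over all kept cells, 60.7% lay in T, NK and innate lymphoid cells and 15.2% in conventional dendritic cell (DC)-like cells. Klra2 (Ly49B) was nearly absent from lymphoid cells, which held 0.426% of its 5162 UMIs. It measured 120 CPM (114 to 126) and 143 CPM (132 to 154) in monocyte-like cells, with a UMI in 44.3% and 49.5% of cells, and 158 and 157 CPM in neutrophil-like cells. Macrophage-like cells held 20.4 and 21.8 CPM and B cell-like cells 1.98 and 0.94. In the neutrophil-like cluster led by Camp and Ngp, genes of immature neutrophils, Klra2 measured 60.2 and 49.0 CPM, and in the largest one, led by Stfa2l1, 229 and 285.

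Klra17 (Ly49Q) was highest in plasmacytoid DC-like cells, at 277 CPM (233 to 327) in the library labelled treated, against 262 CPM (209 to 325) in that labelled control. It was found at 24.7 and 25.0 CPM in neutrophil-like cells and at 24.6 and 28.3 CPM in the conventional DC-like cluster led by Cd209a, while the cluster with Xcr1 and Clec9a had 0 UMIs in both libraries. The gene overlaps Gm17631 on the opposite strand.

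Klrd1 was also found in DC-like cells, with few UMIs of its partner Klrc1. Plasmacytoid DC-like cells held 378 CPM in each library, with a UMI in 76.8% and 78.0% of 69 and 41 cells. They had 0 Klrc1 UMIs in 110 cells, which allows a share of cells with a captured UMI of up to 2.73%. In the Cd209a cluster Klrd1 measured 370 CPM (354 to 386) and 466 CPM (437 to 497) and Klrc1 15.2 and 6.56, a ratio of 24.3 and 71.1, against 1.80 and 1.07 in NK cell-like cells. The Xcr1 cluster had 40.6 and 28.4 CPM of Klrd1 but 125 and 160 CPM of Klrk1, which was in 68.9% and 81.4% of its cells.

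Klrb1b and Klri1 lay mainly in conventional DC-like cells, which held 58.3% and 84.5% of their UMIs. Klrb1b measured 131 and 121 CPM in the Cd209a cluster and 135 and 103 in the Xcr1 cluster, but 4.29 and 3.95 in the cluster led by Fscn1. Klri1 measured 68.0 and 120 CPM in the Cd209a cluster, 32.9 and 36.1 in the Xcr1 cluster and 87.2 and 43.5 in the Fscn1 cluster. Klre1 measured 14.7 and 9.08 CPM in the Cd209a cluster. Klrb1, with 71 UMIs in all, was mostly in B and plasma cell-like cells (70.4%).

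**Figure D5:**
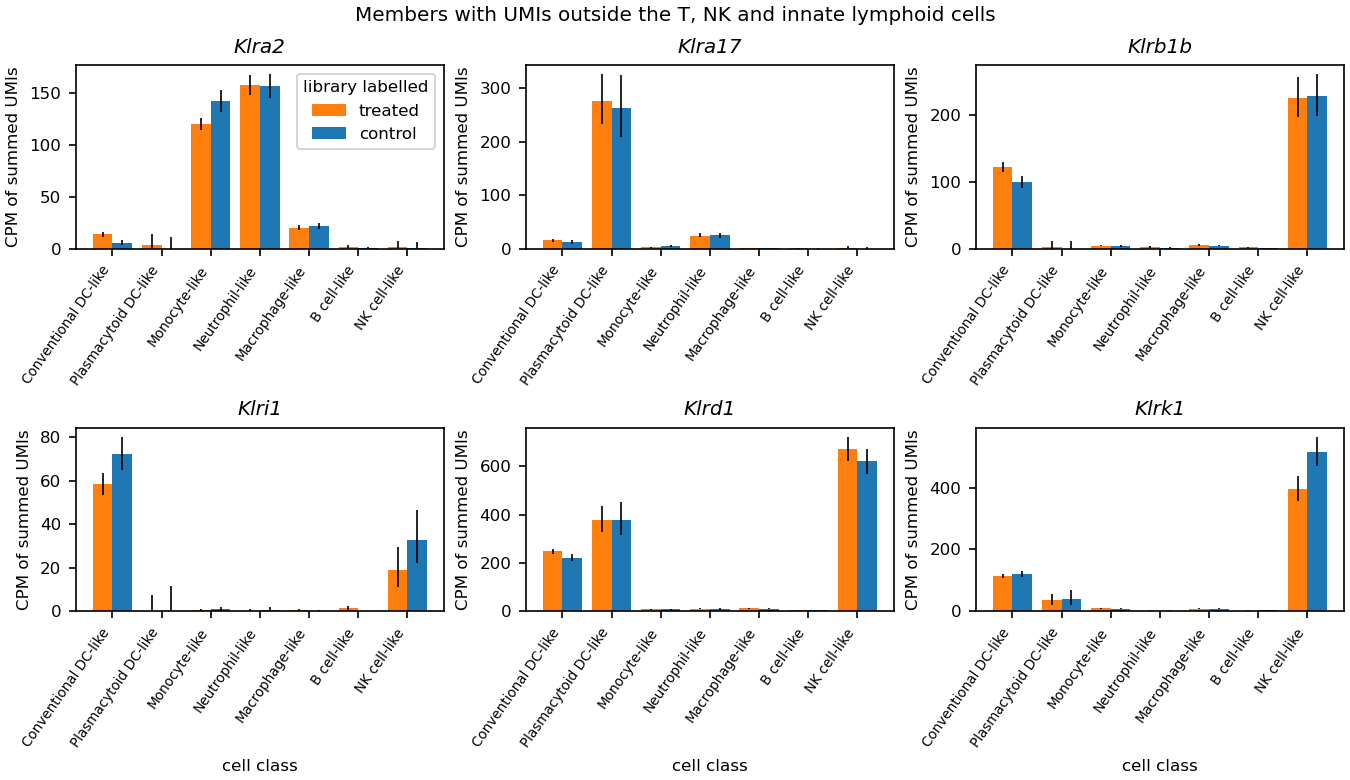
CPM of summed UMIs (y axes, each from 0) of 6 members in 6 classes of other cells and in NK cell-like cells, by library, with 95% Poisson intervals as black lines. Klra2 is high in monocyte-like and neutrophil-like cells, Klra17 in plasmacytoid DC-like cells and Klri1 in conventional DC-like cells. Klrb1b, Klrd1 and Klrk1 are also found in conventional DC-like cells, and Klrd1 in plasmacytoid DC-like cells, below their NK cell-like levels.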

How the data were processed

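Tools named in the submitters' processing notes were Cell Ranger 3.1.0 and Seurat 4.4.0, with mm10 as the build, whereas the header lines of the matrices name Cell Ranger 7.2.0. The deposited values are UMI counts per gene and barcode, not normalized by the authors. The sources used here do not give whether reads in introns entered each count, or how reads matching several paralogs were handled.

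Barcodes with under 500 genes (511 in the library labelled treated, 352 in that labelled control) or over 15% mitochondrial UMIs (178 and 126) were removed from 13155 and 12516. Scrublet, in scanpy 1.11.5, called 684 (5.20%) and 533 (4.26%) doublets against 10.5% and 10.0% expected. Its calls were kept as cells, but clusters mostly of such calls were left unnamed. Leiden clustering (2000 variable genes, 30 components, 15 neighbours, resolution 1, igraph 0.11.9) was run over all cells and again over T, NK and innate lymphoid cells, without Klr genes; 187 cells of mixed clusters were then left out. Clusters were named from 26 fixed marker lists by a scoring rule set after the data were seen. UMIs were summed per subset and library and scaled to CPM, not divided by length, since transcript ends were counted. Ratios have exact conditional binomial intervals, levels exact Poisson and shares Clopper-Pearson intervals, all 95% and for counting error only. The interval calculation was tested on simulated Poisson counts only. These lack the bunching of UMIs in few cells seen for Ly49 genes, so the test does not cover it. A count of 0 was read as up to 3 counts. Alternatives covered doublet calls, clustering, filters, scaling and cells with markers of other classes.

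Every member with at least 20 lymphoid UMIs is named; from the lists of adaptors, ligands and other receptors up to 6 were named, those with the most UMIs or the largest ratio, with 3 other receptors named after their values were seen. Members and lists were chosen with earlier results of these data known. Gene positions come from GENCODE vM21 on GRCm38 (the same assembly as mm10), promoters from RefSeq on GRCm38.p6, aligned with Biopython 1.88.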

Additional observations from a re-analysis of the deposited data

Results flagged for a closer look

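Some members lay at least 1.5-fold apart between the libraries in opposite directions in different subsets, each with an interval that left out 0. The differences between subsets were not tested, since each value comes from 1 library per group. The intervals are of counting error only and leave out that UMIs of 1 cell share that cell. An interval that leaves out 0 therefore does not show a difference between the groups. All values are log2 ratios of the library labelled treated over that labelled control.

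Klrg1 was higher in NK cell-like cells (1.498), regulatory T-like cells (1.51) and cluster 14 (0.80) and lower in cycling-like cells (-1.25). Its regulatory T-like value comes from 49 UMIs in 20 cells against 27 in 16. Klra9 was higher in NK cell-like cells (0.65) and naive-like T cells (0.96) and lower in cycling-like cells (-0.81). Its cycling-like value comes from 26 UMIs in 6 cells against 85 in 9. Its naive-like value comes from 23 UMIs in 10 cells, 9 of those UMIs in 1 cell, against 19 UMIs. Klra7 was higher in cycling-like cells (2.87), from 51 UMIs in 8 cells against 13 in 4, and lower in cluster 14 (-1.05). Klra1 was higher in NK cell-like cells (1.03) and lower in cluster 14 (-0.73). Klra8 was higher in naive-like T cells (2.20), from 20 UMIs in 6 cells against 7 UMIs. It was lower in cluster 14 (-5.005), from 1 and 28 UMIs.

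Klrc1 was higher in effector memory CD4 T-like cells (1.10) and lower in NK cell-like cells (-0.64), cluster 14 (-1.75) and IL-17 type T-like cells (-1.18). Markers of CD8 T cells did not all move with Klrc1. In effector memory CD4 T-like cells the 2 CD8 T cell markers summed to 104 CPM in the library labelled treated, against 40.0 in that labelled control. The 5 effector CD8 T cell markers summed to 1413 and 1088 CPM there. In IL-17 type T-like cells these sums were 12.3 and 10.3, and 840 and 1501. In cluster 14 they were 70.25 and 10.1, and 15422 and 17777. In NK cell-like cells they were 6.92 and 17.4, and 15767 and 9901. The part of these markers was not tested. Klri2 was higher in effector memory CD4 T-like cells (1.31), from 22 and 15 UMIs, and lower in cluster 14 (-5.41), from 1 and 37, and cluster 17 (-1.46). Several of these sums rest on fewer than 20 cells a library.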

How the results depend on the processing

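In NK cell-like cells the count of members at least 1.5-fold apart, 8 of 21, was between 6 and 9 under the other settings tried, except at a minimum of 50 UMIs, where it was 5 of 17. The summed log2 ratio of -0.01 was -0.0853 (-0.16 to -0.01) when cells with more than 1 UMI over 20 B cell, macrophage and neutrophil markers were left out, which kept 285 of 417 cells. The NK cell-like share of lymphoid Klr UMIs in the library labelled control, 22.7%, was 23.5% with Scrublet calls left out and 23.5% at Leiden resolution 0.5. The settings mostly reuse the same cells and counts, so values within the first interval do not show that a difference would recur. Of 168 values of single members under 8 of these settings, 166 lay within the interval first given and 0 changed direction among members past 1.5-fold. Of the 8 such members, 5 stayed past it throughout, though Klra5 dropped from 1.98 to 1.01 (-0.40 to 2.56) without the cells just named; Klri1 (-0.14 as a mean of per-cell CPM, -0.25 without those cells), Klra6 (-0.56 without Scrublet calls) and Klra9 (0.48 as a mean of per-cell CPM) did not. The count within the larger NK cell-like cluster, 7 of 19 with at least 20 UMIs, was added after seeing the data. No paired analysis was possible because each group has 1 library.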
